A study of Mus musculus with 16 samples.

Results

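The miR-30 family was described in the prefrontal cortex of 16 mice, 8 PS19 and 8 wild-type (WT), by small RNA sequencing. Its members were the 7 mature miRNAs mmu-miR-30a-5p, mmu-miR-30b-5p, mmu-miR-30c-5p, mmu-miR-30d-5p, mmu-miR-30e-5p, mmu-miR-30a-3p and mmu-miR-30e-3p, taken by name from the 18488 rows of the deposited table. All 7 passed the filter, a mean normalized count of at least 5, as did 6024 rows in all. PS19+/- mice are heterozygous for a human MAPT transgene with a disease-linked mutation, driven by the mouse prion promoter, on a mixed C57BL/6 and C3H background. The WT mice were littermates without it, and both groups were in the tenth month of life and perfused under anesthesia, with males and females in equal number. Each library came from 1 mouse, and the labels do not give the sex of each.

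MicroRNAs are cut from hairpin precursors, and either arm of the hairpin (5p or 3p) can be kept as the mature strand. A mature miRNA recognises its target mRNAs mainly through the seed, bases 2 to 8 from its 5′ end, so miRNAs with the same seed tend to share targets. The miR-30 family is abundant in many tissues, the brain among them, and its best known members are the 5p arms, which share a seed. Among the targets studied for miR-30a is Becn1, a gene of autophagy, the pathway by which cells degrade their own components.

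RefSeq (GRCm38.p6) gave the mature sequence of 5 of the 7 members. These are given with that of mmu-miR-384-5p, because members of the same arm whose sequences are close had counts that differed widely. Capitals mark the seed.
mmu-miR-30a-5p: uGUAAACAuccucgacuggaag
mmu-miR-30e-5p: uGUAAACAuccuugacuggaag
mmu-miR-30c-5p: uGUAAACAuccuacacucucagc
mmu-miR-384-5p: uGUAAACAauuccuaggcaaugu
mmu-miR-30a-3p: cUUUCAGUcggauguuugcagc
mmu-miR-30e-3p: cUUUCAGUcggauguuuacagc
The 3 matched 5p members had 1 seed between them. Of the 1679 mature miRNA names in the RefSeq table, 1 other, mmu-miR-384-5p, had that seed, and 0 others had the seed of the 3p members. Counting from 1 at the 5′ end, miR-30a-5p and miR-30e-5p differed by 1 base in 22 (C13U), and so did miR-30a-3p and miR-30e-3p (G18A). miR-30a-5p and miR-30c-5p differed at 5 of the 22 positions compared, all outside the seed.

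The hairpins of miR-30a and miR-30e give both arms among the members and are shown for that reason, with the mature arms in capitals (5p first).
Mir30a: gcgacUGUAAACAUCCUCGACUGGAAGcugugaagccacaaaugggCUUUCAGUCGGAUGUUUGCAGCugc
Mir30e: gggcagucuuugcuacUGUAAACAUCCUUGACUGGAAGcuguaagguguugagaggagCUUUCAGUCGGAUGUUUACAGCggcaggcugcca
Mir30a lies on chromosome 1 (23272269 to 23272339, plus strand, GRCm38) outside the other genes annotated in GENCODE M21. Mir30c-2 lies 19.4 kb from it on the same strand (23291701 to 23291784), in an exon of the long non-coding RNA gene Gm27028. Mir30c-1 (120769534 to 120769622) and Mir30e (120772606 to 120772697) lie 2.98 kb apart on the minus strand of chromosome 4, both in an intron of Nfyc, which encodes a subunit of the transcription factor NF-Y and is read from the same strand. Both Mir30c hairpins give the same miR-30c-5p.

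Over the 16 libraries, whole reads recovered from the normalized values came to between 13.2 M and 23.1 M per library. miRNA rows held between 15.0% and 32.6% of a library's signal. The fewest reads behind any member in any library were 233, for miR-30b-5p, where counting alone gives an error of 6.55%; for miR-30d-5p the fewest were 31674. The neuronal miRNAs miR-124-3p and miR-128-3p were well above 0 in every library, at no less than 5333 and 184903 normalized counts. Of 23 marker miRNAs for neurons, oligodendrocytes, immune cells, red blood cells, vessels, choroid plexus, liver and muscle, 19 passed the filter. None of the 19 had an adjusted p-value under 0.05 between genotypes in limma, beside 0% of all tested features. At an unadjusted p under 0.05 there was 1, beside 4% of all tested features. It was the immune cell marker miR-155-5p (limma, unadjusted p = 0.0167), with a log2 difference of 0.78. Of the 19, 9 were higher and 10 lower in PS19. Lower were 4 of 5 neuron, 3 of 3 vessel and 2 of 3 liver and muscle markers. Higher were 2 of 2 oligodendrocyte, 2 of 2 immune, 1 of 1 red blood cell and 2 of 3 choroid plexus markers. The muscle marker miR-1a-3p was present throughout, between 1791 and 13873 normalized counts, but the other muscle marker, miR-133a-3p, was only between 1.90 and 50.6. The red blood cell marker miR-451a was between 1.90 and 40.1.

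The members were compared by normalized count first. Mature miRNAs are of nearly equal length, but libraries made by adapter ligation can recover different sequences unequally, which was not tested here, so the order and the folds between members or arms are those of counts in these libraries. miR-30d-5p and miR-30a-5p led, and miR-30b-5p, whose hairpin is a genomic neighbour of that of miR-30d, was lowest. The normalized count of miR-30d-5p was 53778 ± 20192 (SD, n = 16), with a lowest value of 24275, a median of 55702 and a highest of 86509. That of miR-30a-5p was 38423 ± 17063 (SD, n = 16), from 14373 to 75685 around a median of 37231. The other arm of the miR-30a hairpin, miR-30a-3p, came next at 15798 ± 6692 (SD, n = 16). After it were miR-30c-5p at 11703 ± 4941 (SD, n = 16) and miR-30e-3p at 5541 ± 1912 (SD, n = 16). The lowest members were miR-30e-5p at 1234 ± 510 (SD, n = 16) and miR-30b-5p at 438 ± 182 (SD, n = 16).

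Each member was set against the next lower one within each library, and all 6 neighbours in this order differed (two-sided exact sign-flip permutation tests, adjusted over the 6 from 3.7e-05 to 1.5e-04). The order was taken from the mean levels in these same libraries, so the tests describe how steadily it held and are not independent support. For 5 of the 6 the order held in 16 of 16 libraries. miR-30d-5p was 1.43-fold above miR-30a-5p, miR-30a-5p was 2.44-fold above miR-30a-3p, and miR-30c-5p was 2.06-fold above miR-30e-3p. miR-30e-3p was 4.60-fold above miR-30e-5p, which was 2.76-fold above miR-30b-5p. The closest pair was miR-30a-3p and miR-30c-5p, at 1.34-fold with miR-30a-3p higher in 15 of 16 libraries. In WT replicate 8 miR-30c-5p was the higher, at 20303 against 17146.

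**Figure D1:**
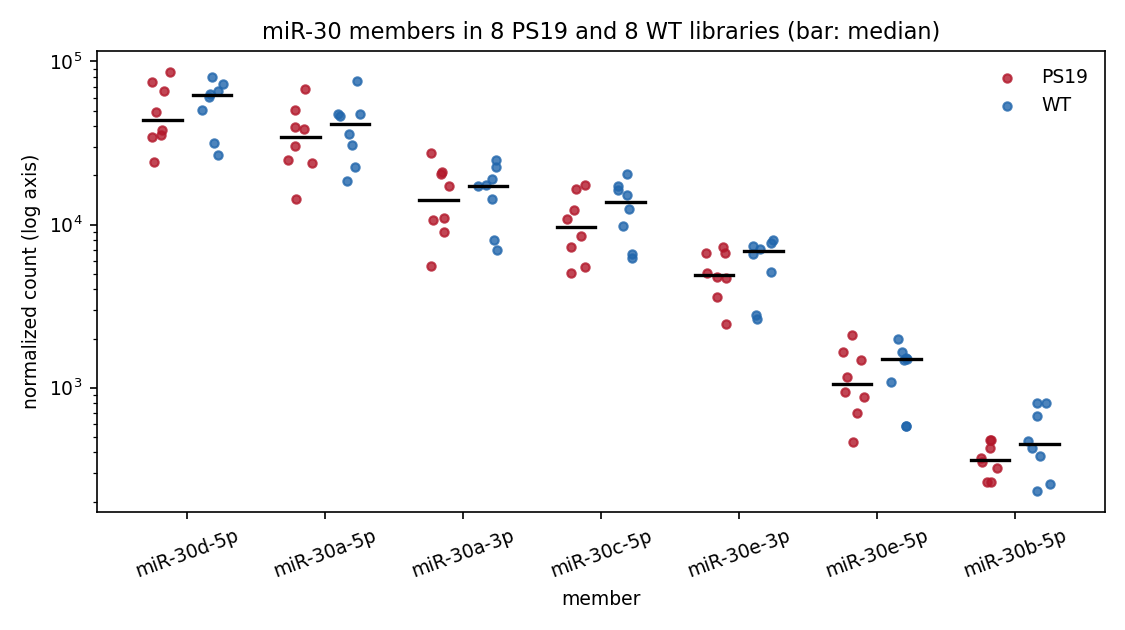
Normalized counts (log axis) of the 7 miR-30 members, ordered by mean level, with 1 point per library and a bar at the median of each genotype (red PS19, blue WT, n = 8 each). The order from miR-30d-5p (mean 53778) to miR-30b-5p (mean 438) is plain, and within each member the PS19 and WT points overlap.

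Together the 7 members summed to between 52448 and 207974 normalized counts, which was 2.14% to 4.14% of the miRNA signal. miR-30d-5p gave 42.7% ± 2.08 (SD, n = 16) of it, miR-30a-5p 30.0% ± 2.83, miR-30a-3p 12.3% ± 1.52 and miR-30c-5p 9.22% ± 1.38. The share of miR-30c-5p ran from 6.31% in PS19 replicate 7 to 12.2% in WT replicate 8. The shares of miR-30e-3p, miR-30e-5p and miR-30b-5p were 4.47% ± 0.679, 0.963% ± 0.0797 and 0.358% ± 0.0892, respectively. WT replicate 4 had the highest share of miR-30a-5p, at 36.8%, and the lowest of miR-30d-5p, at 39.1%. Among the 5p members alone, which carry the shared seed, miR-30a-5p and miR-30d-5p made up 83.9% to 90.9%. The other miRNA with that seed, miR-384-5p, was at 155 ± 77.2 (SD, n = 16) normalized counts, or 0.0907% to 0.261% of the summed 5p members.

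**Figure D2:**
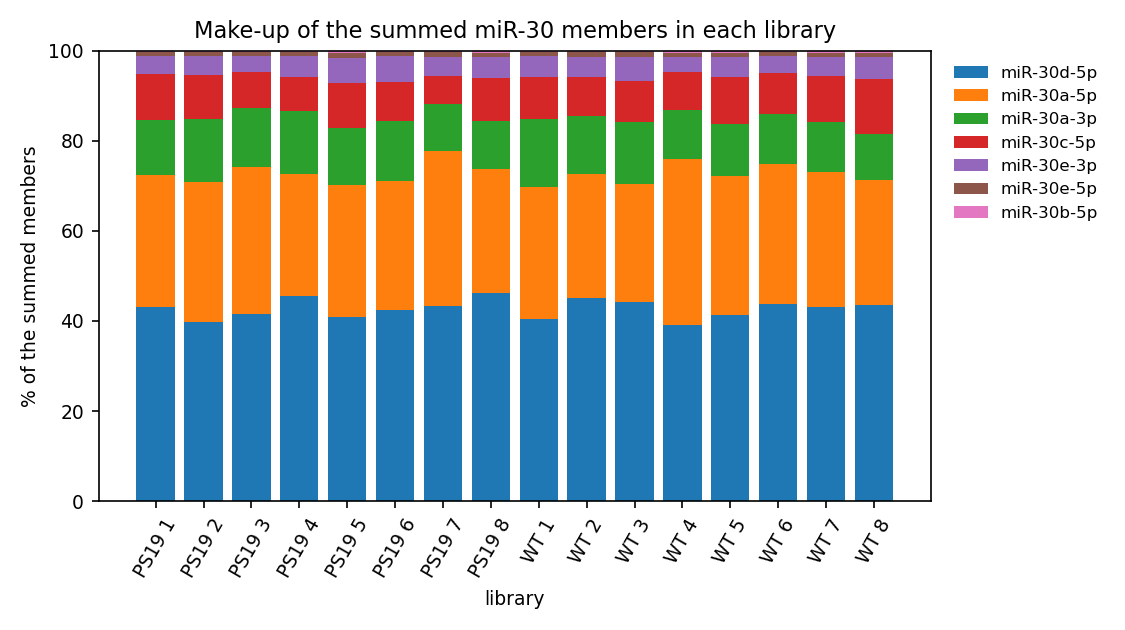
Stacked bars give each member's percent of the summed normalized counts of the 7 members in each library, 8 PS19 on the left and 8 WT on the right. miR-30d-5p (39.1% to 46.3%) and miR-30a-5p (26.3% to 36.8%) form most of each bar, and the mean shares have the same order in both genotypes.

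The arms of the hairpins were then compared, using all rows that the table held for them. In miR-30a the 5p arm was the higher in 16 of 16 libraries, at 1.91 to 3.37 times the 3p arm with a median of 2.43. In miR-30e the order was turned, and the 3p arm was the higher in 16 of 16 libraries, at 3.47 to 6.81 times the 5p arm. On the log2 scale the 5p over 3p ratios of these hairpins differed by 3.49 ± 0.253 (SD, n = 16 libraries), with miR-30a above miR-30e in all 16 (two-sided exact sign-flip permutation test, p = 3.1e-05, the smallest these libraries can give). The corresponding arms differ by 1 base each, as the sequences above show. miR-30a-5p was 23.9 to 39.1 times miR-30e-5p, while miR-30a-3p was 2.13 to 3.76 times miR-30e-3p. The sources used here do not say how a read that matches several mature miRNAs was counted, so the split between such near-identical arms is uncertain. None of the 7 members had values identical to another row, but this cannot show how reads were split between arms.

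In miR-30d the 5p arm was the higher in 16 of 16 libraries, at 1031 to 3167 times miR-30d-3p. The highest of these ratios, in WT replicate 6, rested on 10 reads of miR-30d-3p, and the next, in WT replicate 4, was 2053. miR-30d-3p was at 35.4 ± 15.8 (SD, n = 16) normalized counts. Of the arm ratios compared here, that of miR-30b had the median nearest to 1. The 5p over 3p ratio of miR-30b ran from 0.881 to 2.84 with a median of 1.31, and 5p was the higher in 13 of 16 libraries. miR-30b-3p was at 307 ± 98.5 (SD, n = 16) normalized counts. miR-30c-5p was 4.13 to 17.2 times its 3p arms summed, and WT replicate 8 held the highest of these ratios, with WT replicate 5 next at 9.08. miR-30c-2-3p, from the chromosome 1 hairpin, was at 1793 ± 731 (SD, n = 16), and miR-30c-1-3p, from that on chromosome 4, at 63.8 ± 25.2 (SD, n = 16). The former was 20.4 to 35.3 times the latter, in all 16 libraries.

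**Figure D3:**
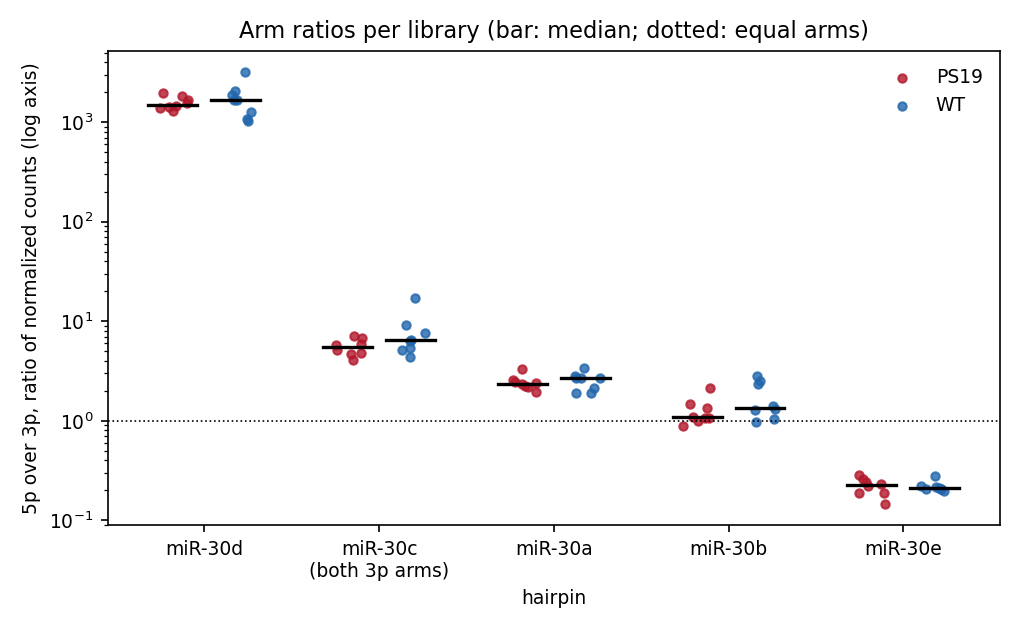
Ratio of the 5p to the 3p normalized count (log axis) for 5 groups of miR-30 arms, 1 point per library, with a bar at the median of each genotype (red PS19, blue WT, n = 8 each) and a dotted line at equal arms. miR-30d lies near 1600 (median over all libraries), miR-30a above the line at a median of 2.43, miR-30b astride it, and miR-30e below it in all 16 libraries.

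The comparison of PS19 with WT asked whether the levels of these miRNAs differ with genotype. No measure of tau pathology in these mice was used. None of the 7 members (0 of 7) had an adjusted p-value under 0.05 in limma, beside 0% of the 6024 features tested, nor an unadjusted one (0 of 7, beside 4% of all tested features and 2.4% of the 750 tested miRNA rows). All 7 were lower in PS19 by the fitted difference, from -0.13 to -0.35 on the log2 scale with a median of -0.18. The median over the 521 tested mature miRNAs was -0.13, and 66.4% of them were lower in PS19 as well, so the members' sign was that of most mature miRNAs. Without PS19 replicate 8, the lowest library of 6 members, miR-30e-5p and miR-30a-3p differed by 0.0033 and 0.050, above 0, and miR-30a-5p by -0.01. Without WT replicate 4 miR-30a-5p differed by -0.04. The median of the mature miRNAs moved too, to -0.01 without PS19 replicate 8, -0.05 without WT replicate 1 or 3, and -0.26 without WT replicate 7. The median over all tested features was -0.02.

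Among the 5p members, miR-30d-5p ranged from 24275 over a median of 43459 to 86509 normalized counts in PS19, and from 26617 over 62091 to 80522 in WT. The groups overlapped along nearly their whole range, with PS19 replicates 1 and 3 among the highest libraries and PS19 replicate 8 the lowest. Its log2 difference was -0.18 (95% interval -0.75 to 0.39, limma adjusted p = 0.9998). miR-30a-5p ranged from 14373 over 34302 to 67678 in PS19 and from 18483 over 41103 to 75685 in WT. PS19 replicate 8 was the lowest library and WT replicate 4 the highest, and 6 of 8 PS19 libraries lay below the WT median. Its log2 difference was -0.18 (95% interval -0.81 to 0.44).

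miR-30b-5p had the largest fitted difference of the 7 in the fit to all 16 libraries. Without PS19 replicate 1 that of miR-30c-5p was the larger, at -0.46 against -0.41. The SD of miR-30b-5p was 86.0 normalized counts in PS19 and 229 in WT, a difference in spread that was not tested. miR-30b-5p ranged from 263 over a median of 360 to 480 normalized counts in PS19, and from 233 over 448 to 807 in WT. All 8 PS19 libraries lay within the WT range, while WT replicates 4, 5 and 8, at 805, 671 and 807, lay above every PS19 library. The log2 difference of miR-30b-5p was -0.35 (95% interval -0.91 to 0.20, limma adjusted p = 0.9998). miR-30c-5p ranged from 5025 over 9654 to 17490 in PS19 and from 6260 over 13743 to 20303 in WT. Here too the groups overlapped, and 6 of 8 PS19 libraries lay below the WT median. Its log2 difference was -0.34 (95% interval -0.96 to 0.28). miR-30e-5p, from 462 over 1052 to 2105 in PS19 and from 579 over 1494 to 1973 in WT, differed by -0.17 (95% interval -0.82 to 0.49) on the log2 scale.

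Of the 3p members, miR-30a-3p ranged from 5587 over a median of 14139 to 27483 normalized counts in PS19, and from 6937 over 17318 to 25026 in WT. Its log2 difference was -0.13 (95% interval -0.80 to 0.53), the smallest of the 7 in the fit to all 16 libraries. miR-30e-3p ranged from 2461 over 4893 to 7303 in PS19 and from 2647 over 6858 to 8053 in WT, with a log2 difference of -0.16 (95% interval -0.74 to 0.41). For miR-30e-3p, 7 of 8 PS19 libraries lay below the WT median, yet 7 of 8 also lay within the WT range. As folds, the 95% intervals of the 7 members reached from between 0.515 and 0.600 at their lower ends to between 1.15 and 1.44 at their upper ends, and each interval included no change. In bulk tissue, a lower count can reflect fewer cells of a type or less of the miRNA per cell, and these cannot be told apart.

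**Figure D4:**
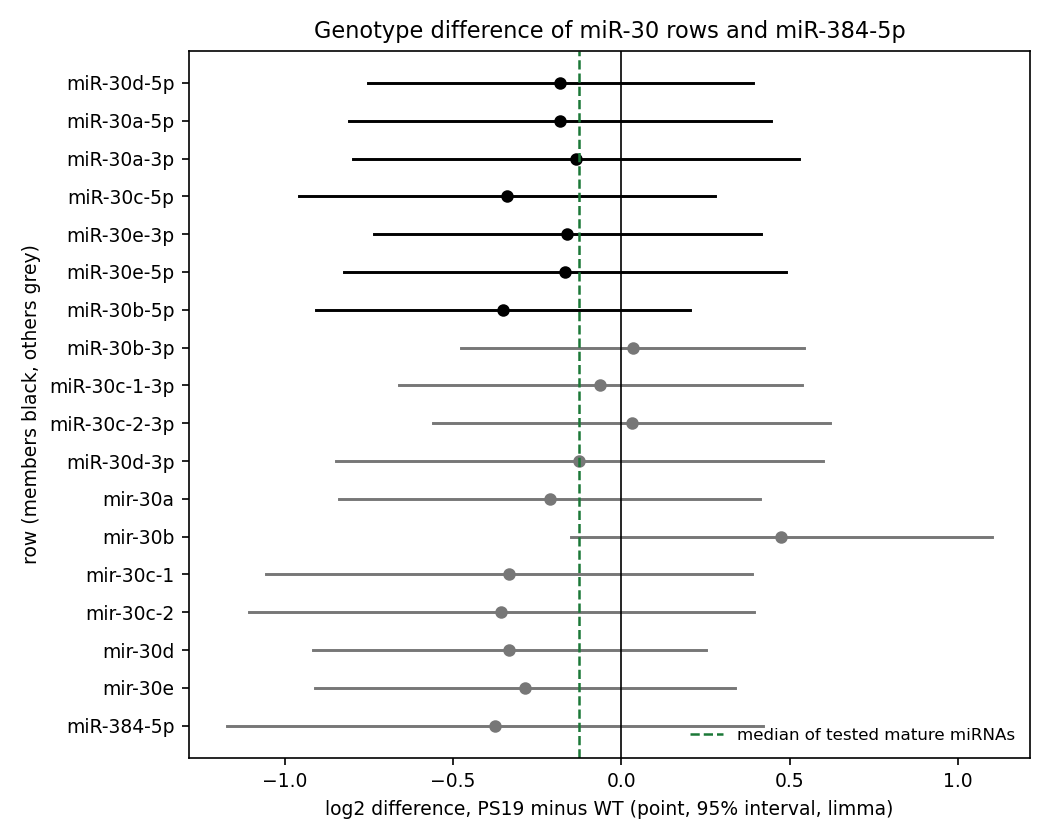
Log2 difference of PS19 minus WT with its 95% interval (limma, n = 8 per genotype) for the 7 members (black), the other mature arms and the precursor rows of miR-30 and miR-384-5p (grey), beside the median of the 521 tested mature miRNAs (dashed, -0.13; without 1 library, from -0.26 to -0.01). All 18 intervals cross 0.

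The other rows of the miR-30 hairpins were tested in the same fit. Of the 4 other mature arms, 2 were higher and 2 lower in PS19, with log2 differences from -0.12 to 0.03 and a median of -0.02. None of the 4 had an unadjusted p-value under 0.05 in limma. Of the 6 precursor rows, 5 were lower and 1, mmu-mir-30b, was higher in PS19, and again none passed. mmu-mir-30b had a log2 difference of 0.47 (95% interval -0.15 to 1.10, limma adjusted p = 0.9998), but rested on 2 reads in its lowest library. The sources do not say which reads a precursor row holds beyond those of the mature rows. The log2 difference of miR-384-5p was -0.37 (95% interval -1.17 to 0.42, limma adjusted p = 0.9998).

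Ratios between members do not depend on how a library was scaled, and 3 were compared between genotypes, with p-values adjusted over the 3. The log2 ratio of miR-30a-5p to miR-30a-3p averaged 1.27 in the 8 PS19 libraries (SD 0.229) against 1.31 in the 8 WT libraries (SD 0.292). The difference was -0.05 (95% interval -0.33 to 0.24, with p = 0.713 by a two-sided exact permutation test and 0.957 after adjustment). That of miR-30e-5p to miR-30e-3p averaged -2.21 (SD 0.314) against -2.20 (SD 0.155), a difference of -0.01 (95% interval -0.28 to 0.26, with p = 0.957 by the exact permutation test before and after adjustment). That of miR-30b-5p to miR-30d-5p averaged -7.02 (SD 0.423) against -6.85 (SD 0.281), a difference of -0.17 (95% interval -0.55 to 0.21, with p = 0.351 by the exact permutation test and 0.957 after adjustment). None of the 3 differences was larger than the spread between mice. The intervals were found by shifting the PS19 values until the permutation test reached its threshold.

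Across the 16 libraries the Pearson r between log2 values of 2 members had a median of 0.913 over the 21 pairs, from 0.711 for miR-30b-5p and miR-30a-3p to 0.984 for miR-30d-5p and miR-30e-5p. With miRNA rows scaled to the total of all miRNA rows, the median r was 0.677, from 0.247 for miR-30b-5p and miR-30a-3p to 0.918 for miR-30a-5p and miR-30d-5p. These points share their libraries and scaling, so the r is a description only. PS19 replicate 8 was the lowest library for 6 of the 7 members, and WT replicate 6 was the lowest for miR-30b-5p. The log2 value of miR-30d-5p followed the share of the library's signal in miRNA rows, with a Pearson r of 0.921 and a Spearman rho of 0.853 over 16 libraries (permutation tests, p = 1e-05, the smallest these permutations can give, and p = 7e-05, or 2e-05 and 1.4e-04 adjusted over 4 relations). Without the 2 libraries farthest from the median share, r was 0.929. Within PS19 alone r was 0.927 (exact permutation test, p = 0.00253, adjusted p = 0.00253) and rho 0.738 (exact permutation test, p = 0.0458, adjusted p = 0.0458). Within WT alone r was 0.934 (exact permutation test, p = 0.00112, adjusted p = 0.00149) and rho 0.762 (exact permutation test, p = 0.0368, adjusted p = 0.0458). miR-30d-5p is itself a miRNA row and so counts towards that share, at a mean of 1.19% of the miRNA signal. The authors' scaling has 1 size factor per library for all rows, so the count of any abundant miRNA tends to rise with the share. The relation is therefore partly built in, its p-values are a description only, and no other miRNA row was set beside it.

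**Figure D5:**
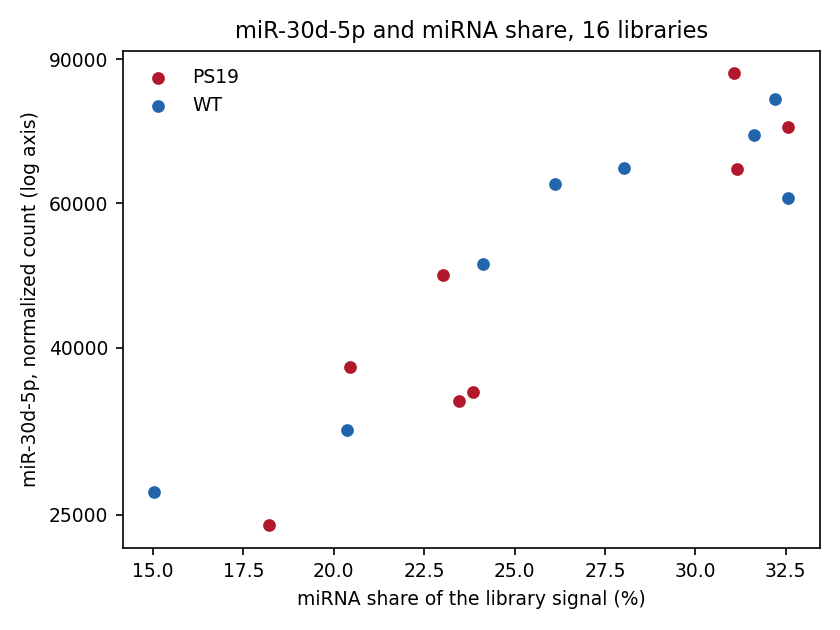
Normalized count of miR-30d-5p (log axis) against the percent of each library's signal in miRNA rows, 1 point per library (red PS19, blue WT, n = 8 each). The count climbs with the share in both genotypes (Pearson r of 0.927 in PS19 and 0.934 in WT).

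With miRNA rows scaled to the total of all miRNA rows, the spread of miR-30d-5p between the 16 libraries was an SD of 0.256 on the log2 scale, against 0.594 with the authors' scaling. For miR-30a-3p these were 0.247 and 0.698, and for miR-30b-5p 0.493 and 0.557. The members' genotype differences were then from -0.08 to -0.30 on the log2 scale, and 0 of 7 had an unadjusted p-value under 0.05 in limma. Library codes in the labels began with G for 8 PS19 and 2 WT libraries, with F for 4 WT and with A for 2 WT. With this letter as a term the genotype difference rests on the 2 WT libraries with letter G. The differences were then -0.44 for miR-30d-5p, -0.56 for miR-30a-5p, -0.62 for miR-30b-5p and -0.45 for miR-30c-5p. They were -0.47 for miR-30e-5p, -0.40 for miR-30a-3p and -0.29 for miR-30e-3p, with 0 of 7 at an unadjusted p-value under 0.05 in limma. The median of the 521 tested mature miRNAs moved as well, from -0.13 to -0.33. What the letter stands for is not given in the sources used here.

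The mature miRNAs whose values followed the family most closely were named by Pearson r over the 16 libraries, among 509 tested mature miRNAs outside it. Nearest to the summed 5p members were miR-126a-3p (r = 0.965), a miRNA of endothelial cells, miR-29a-3p (0.964), miR-340-3p (0.956), miR-24-3p (0.954) and miR-101a-3p (0.954). Nearest to the summed 3p members were miR-22-5p (r = 0.982), miR-9-5p (0.969), a miRNA of neural cells, and miR-146b-5p (0.964). The median r of the 509 was 0.645 with the 5p and 0.697 with the 3p members. With miRNA rows scaled to their own total these medians were 0.059 and -0.0023, and 3 of the 5 nearest to the 5p members were named again: miR-24-3p (r = 0.869), miR-126a-3p (0.834) and miR-29a-3p (0.826). Nearest to the 3p members were then miR-126a-3p (0.906), miR-22-5p (0.822) and miR-340-3p (0.817).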

How the data were processed

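The values deposited by the authors were a normalized signal, read counts divided by 1 size factor per library, called normalized counts here. Per the study's methods and processing notes, small RNA reads (NEBNext libraries, single-end) were aligned to mm10 with STAR 2.5.3a inside COMPSRA and compared with DESeq2 1.42.1. The table's other columns held the authors' fold changes and p-values and were not used. Genotype came from the labels, and libraries are named by genotype and title number. In all libraries 100% of values were whole multiples of 1 read (tolerance 0.05); in WT replicates 4 and 6 a read is worth nearly 1, which is weaker evidence. Reads carried no molecular identifiers, so counting errors cover counting only. The 56 pairs of libraries within a group differed beyond sampling noise (chi-square per degree of freedom from 43.5 to 569.9).

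The main test was limma 3.58.1 (lmFit, eBayes with trend, R 4.3.3) on log2(value + 1) over the rows with a mean of at least 5, two-sided, with Benjamini-Hochberg adjustment over all 6024. Differences are on that scale, which understates those of low rows. Single ratios were tested by exact permutation (Python 3.11.15, numpy 2.4.6). The tests were checked on simulated data. Sequences came from RefSeq and gene positions from GENCODE M21, both GRCm38, the assembly of mm10. Alternatives were DESeq2 1.42.0 and edgeR 4.0.16 on recovered reads, other scalings, filters, pseudocounts of 0.5 and 5, array weights, further terms, and leaving out each library. The rows named were the 7 members, the other arms and precursors of their hairpins, miRNAs with the 5p seed, and the 5 and 3 most like by r. Members and lists were chosen with earlier results of these data known.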

Additional observations from a re-analysis of the deposited data

Results flagged for a closer look

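Of 58 values examined within a genotype (levels, ratios and shares of the miR-30 rows and of miR-384-5p), 1 had a library set far from the others by the gap to its nearest neighbour, where chance gives about 2.9. The log2 ratio of miR-30e-5p to miR-30e-3p was -1.85 in WT replicate 4 against -2.16 in the next WT library, a gap of 0.623 of the range. The same library had the highest level of miR-30a-5p and the highest miR-30a 5p over 3p ratio. Without it the log2 difference of PS19 minus WT was -0.04 for miR-30a-5p, -0.06 for miR-30e-5p, -0.05 for miR-30a-3p and -0.10 for miR-30d-5p, against -0.18, -0.17, -0.13 and -0.18 with it.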

How the results depend on the processing

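The number of members with an adjusted p-value under 0.05 stayed at 0 of 7 under all 28 alternatives, those in limma as well as edgeR and DESeq2 (which called 15 of all features, none of them a member), and so did the number with an unadjusted one. The smallest p-values among 196 refitted member values were 0.0679 unadjusted and 0.763 adjusted, both for miR-30b-5p with array weights. The sign of PS19 minus WT was kept in 194 of the 196. Leaving out 1 library at a time moved every member except miR-30b-5p by over 1.5 times: the differences ran from -0.33 to -0.01 for miR-30a-5p, -0.49 to -0.24 for miR-30b-5p, -0.47 to -0.21 for miR-30c-5p, -0.32 to -0.05 for miR-30d-5p, -0.32 to 0.0033 for miR-30e-5p, -0.29 to 0.050 for miR-30a-3p and -0.31 to -0.02 for miR-30e-3p. The highest came without PS19 replicate 8, except for miR-30b-5p (without WT replicate 8). In the same way, the log2 difference of the miR-30a 5p over 3p ratio ran from -0.12 to 0.014 (0.014 without WT replicate 4), that of miR-30e from -0.066 to 0.073 (above 0 without PS19 replicates 5, 6 or 8 or WT replicate 4, at 0.024, 0.073, 0.022 and 0.044), and that of miR-30b-5p over miR-30d-5p from -0.27 to -0.10. No ratio passed under any alternative, and all 6 neighbours in the order of levels differed within each genotype and without any 1 library. With the replicate number as a replicate block, 0 of 7 members passed and the ratio differences were -0.05, -0.01 and -0.17. The labels do not say what the number marks. Each tested row's genotype mean was subtracted from its log2 values, and these deviations were correlated between PS19 and WT libraries. For same-numbered libraries r was 0.045 to 0.456, with 6 of 8 pairs over 0.1. Of the 16 libraries, 4 correlated best with their own number in the other genotype. With 8 mice a group, the members' 95% intervals still included changes down to between 0.515-fold and 0.600-fold and up to between 1.15-fold and 1.44-fold.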
